A study of Mus musculus with 58 samples.

Results

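Setd2 is the gene that was deleted in this study, and its own locus is described here in H3K27ac tracks of full-grown mouse oocytes. The locus was taken by position alone, as chromosome 9 from 110420001 to 110540000 of the mouse build mm9, which holds 120 of 2638955 windows of 1 kb on the autosomes and X. Within it Setd2 runs on the plus strand from about 110435000 to about 110521000, so it is 1 gene of about 86 kb with a stretch on either side. Oocytes labelled Setd2-/- (the maternal knockout) were compared with oocytes labelled Setd2+/- (the control), so 1 copy of the gene is inactive in the control as well. Per the labels' protocols the females were 8 weeks old and received PMSG and hCG, hormones that drive follicle growth and ovulation. The sources used here give neither the deleted exons nor the driver of the deletion, nor the strain or the number of oocytes or animals per library.

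STAR ChIP-seq, a protocol that immunoprecipitates chromatin of few cells, was used with an antibody against histone H3 acetylated at lysine 27. Each genotype had 2 replicates, which the authors merged into 1 track, so each value below is a pooled value with no spread between replicates, and no test was possible. Recovered from the tracks, the knockout pool held 29367645 reads and the control pool 30694806 reads. Values are in RPKM, reads per kb of sequence, scaled to the reads of the library, over bins of 100 bp. Intervals are exact binomial (Clopper-Pearson) 95% intervals on reads and cover counting error only. Reads in the region were more uneven than independent counts, with a variance over the mean inside 1 kb windows of 3.57 in knockout and 1.76 in control, so intervals widened by these factors are given for the main values. Without an annotation of mm9, oocyte and granulosa cell markers were not analysed here, so the labelled cell type was not checked.

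SETD2 is the histone methyltransferase that trimethylates lysine 36 of histone H3. It travels with elongating RNA polymerase II, so H3K36me3 accumulates over the bodies of transcribed genes and marks them for DNA methylation in the growing oocyte. H3K27ac is placed by the acetyltransferases p300 and CBP at active promoters and enhancers, and in oocytes it can also spread over broad stretches. In the RefSeq order of protein-coding genes, Kif9, a kinesin motor gene, comes before Setd2 and Nradd, which encodes a protein with a death domain, comes after it. Beyond these lie Klhl18, the gene of a substrate adaptor of a ubiquitin ligase, and Nbeal2, known for its role in platelet granules.

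The promoter is shown because the start of the gene is where H3K27ac is usually read. These are the 250 bases before the RefSeq start of Setd2 in build GRCm38.p6, at chr9:110532347-110532596 on the plus strand, 5′ to 3′, with each CG pair in capitals. The position belongs to that build and cannot be set beside the mm9 positions used elsewhere.
Setd2: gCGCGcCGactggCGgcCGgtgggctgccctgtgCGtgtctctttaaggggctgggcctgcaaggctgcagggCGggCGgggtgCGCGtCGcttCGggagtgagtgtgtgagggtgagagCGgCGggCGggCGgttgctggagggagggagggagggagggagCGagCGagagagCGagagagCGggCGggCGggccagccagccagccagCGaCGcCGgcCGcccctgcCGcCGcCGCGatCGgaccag
The stretch had 31 CG pairs and 76.0% G and C, against a median of 6 pairs and 52.4% over 32851 RefSeq promoter entries, some of which belong to the same gene. As many CG pairs were found in 5.19% of these entries. The motif GGGCGG, read on both strands and often called a GC box, occurred 7 times, overlapping the CG pairs and at times another copy of itself. At least 1 copy was present in 32.7% of entries and as many copies in 0.411%. TATAAA was not found on either strand in this window, and 12.4% of entries held it.

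The deleted gene itself was examined first for a gap in the knockout track. Knockout reads were found along the whole gene, and the longest stretch without any was 600 bp. There were 4 such stretches, the first from 110443401 to 110444000, where the control pool had 16 reads. The stretch without knockout reads that held the most control reads, 17, was the 400 bp from 110445001 to 110445400. The control track had a longest empty stretch of 800 bp, from 110518701 to 110519500, where the knockout pool had 18 reads. Among 13962 autosomal windows of 86 kb that reached the genome-wide mean, the median longest empty stretch was 2100 bp in knockout and 1800 bp in control, and it was as short as at Setd2 or shorter in 2.25% of them for knockout and in 12.7% for control. The sparsest 2 kb of the gene in knockout, from 110463801 to 110465800, had 10 knockout reads and 23 control reads. A missing stretch shorter than these was not detectable at this depth, and read extension, which the sources used here do not give, can carry reads into a gap. As the deleted part is not given either, the tracks do not check the genotype labels.

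Over the region as a whole H3K27ac was higher in knockout, at 0.790 RPKM (2785 reads), than in control, at 0.454 RPKM (1670 reads). The ratio of knockout over control was 1.74 (1.64 to 1.85, widened 1.59 to 1.92). In both pools the region lay above the genome-wide mean, by 2.09 times in knockout and 1.20 times in control. The same ratio was 1.12 for chromosome 9 and 1.03 for the autosomes. Among 10165 autosomal windows of 120 kb that reached the genome-wide mean (0.379 RPKM, averaged over both pools), 14.5% had a higher log2 ratio than this region. Bins with reads made up 60.4% of the region in knockout and 58.4% in control, against 33.0% in knockout and 44.3% in control over the autosomes and X. Each covered bin of the region held on average 3.84 reads in knockout and 2.38 in control, against 3.37 reads in knockout and 2.63 in control over the autosomes and X. Knockout reads were thus gathered in fewer bins across the genome. At Setd2 the covered share was about as large as in control, and the higher knockout signal lay mostly in more reads per covered bin. Bins with an even number of reads made up 53.0% of covered bins of the region in knockout and 42.7% in control, against 52.9% in knockout and 43.0% in control genome-wide. What this difference between the libraries adds to the ratios was not tested.

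**Figure D1:**
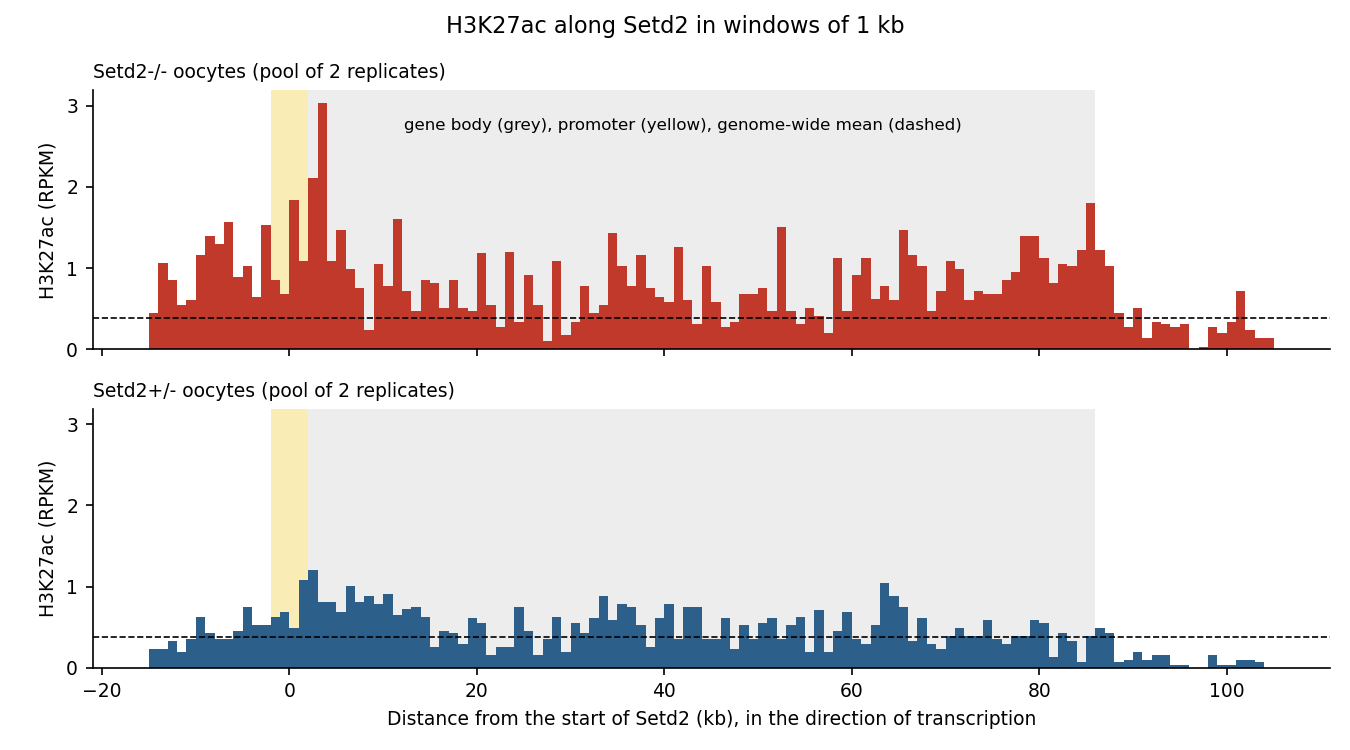
H3K27ac in RPKM in windows of 1 kb against the distance in kb from the start of Setd2, for the pooled Setd2-/- track above and the pooled Setd2+/- track below, on 1 scale. The knockout track reaches 3.03 RPKM and the control track 1.21 RPKM, both within 4 kb past the start, and both fall past the end of the gene.

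The promoter, taken as 2 kb on either side of the start (110433001 to 110437000), had 1.11 RPKM in knockout (131 reads) and 0.718 RPKM in control (88 reads). Its ratio was 1.56 (1.18 to 2.06, widened 1.01 to 2.40), short of the 2-fold difference used for a call, which was reached upwards by 12.8% of 253751 autosomal windows of 4 kb. The level was high against the rest of the autosomes, where 6.74% of all 4 kb windows were higher in knockout and 16.1% in control. The difference was not even across the promoter. In the 1 kb centred on the start, singled out after its values were seen, the knockout pool had 32 reads (1.09 RPKM) and the control pool 6 reads (0.197 RPKM), a ratio of 5.57 (2.30 to 16.3). In the other 3 kb the values were 1.12 RPKM in knockout and 0.892 RPKM in control, a ratio of 1.26 (0.932 to 1.71). The adjoining 500 bp at 110434001 to 110434500 went the other way, with 5 reads (0.340 RPKM) in knockout and 17 reads (1.11 RPKM) in control. Each track thus had low windows close to the start, at different places, and the start itself is approximate in mm9. Windows of 500 bp about as low or lower lay elsewhere within 10 kb of the start. The knockout had 0 reads at 110443501 to 110444000, and the control had 3 reads at 110429001 to 110429500.

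**Figure D2:**
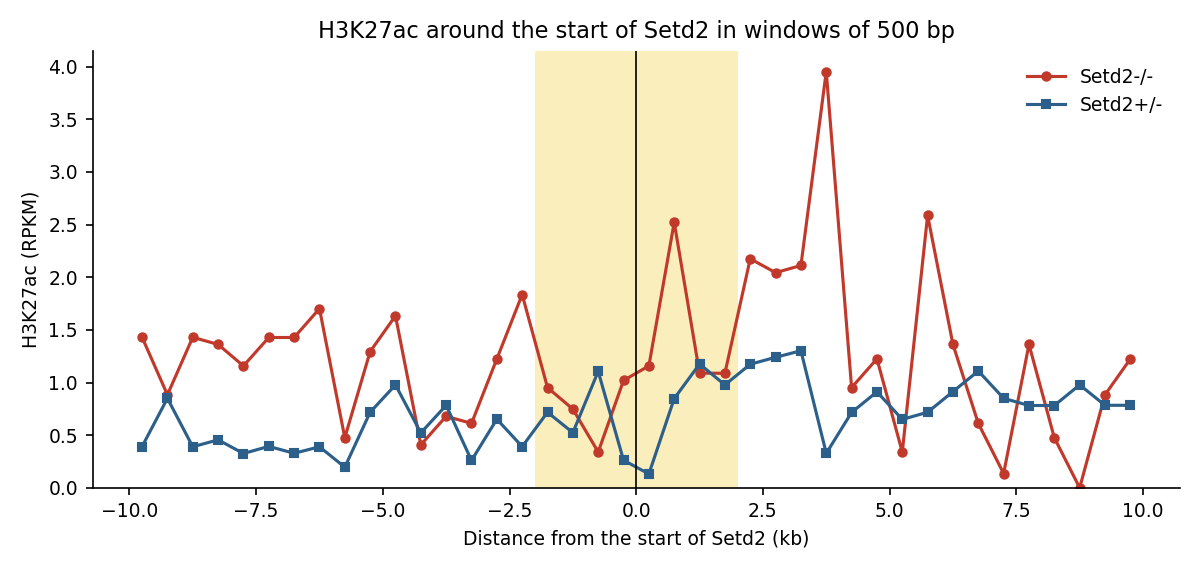
H3K27ac in RPKM in windows of 500 bp within 10 kb of the start of Setd2 (line at 0, promoter shaded), for the pooled Setd2-/- and Setd2+/- tracks. In the windows on either side of the start the knockout has 1.02 and 1.16 RPKM and the control 0.262 and 0.132 RPKM, and the highest knockout window, 3.95 RPKM, lies 3.75 kb past the start.

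Both pools had their highest 1 kb of the whole region just inside the gene. In knockout this was the window at 110438001 to 110439000, with 89 reads and 3.03 RPKM, where the control had 25 reads and 0.815 RPKM. Its ratio was 3.72 (2.37 to 6.05). In control it was the neighbouring window at 110437001 to 110438000, with 62 knockout reads and 37 control reads, a ratio of 1.75 (1.15 to 2.71). This window was also the second highest in knockout, with 2.11 RPKM. Neither of these 2 intervals was widened for the unevenness of the reads. The window ranked 3 in knockout was at 110435001 to 110436000, the first 1 kb of the gene, with 54 knockout reads and 15 control reads. The window ranked 2 in control, at 110436001 to 110437000, had nearly equal signal, with 32 knockout reads and 33 control reads. The window ranked 3 in control lay deep in the gene, at 110498001 to 110499000, with 23 knockout reads and 32 control reads. Rich windows, those with 3 times their own pool's mean or more, numbered 23 of 120 in knockout, against 7.63% of windows across the autosomes and X, and 1 of 120 in control, against 4.64%. The single rich control window was rich in knockout too. Rich knockout windows were spread over the locus, with 5 in the upstream flank, 1 in the promoter, 16 in the gene body and 1 just past the gene.

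The gene body, from 110437001 to 110521000, had 0.838 RPKM in knockout (2069 reads) and 0.524 RPKM in control (1349 reads). The ratio was 1.60 (widened interval 1.44 to 1.79), and 4.57% of 14335 autosomal windows of 84 kb were 2-fold higher, a limit the gene body did not reach. Of those windows 20.4% had a log2 ratio above that of the gene body. The promoter was 1.33 times as high as the gene body in knockout (1.11 to 1.59) and 1.37 times in control (1.09 to 1.70). These intervals were not widened, though reads of the promoter had a variance over the mean of 3.70 in knockout and 1.82 in control. Whether the promoter exceeded the gene body beyond this unevenness was not tested. With the promoter taken as 1 kb on either side of the start, it was 1.5 times as high in knockout and 1.12 times in control.

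Along the gene the difference was largest at the 3′ end. For this the gene body was divided into 4 stretches of 21 kb, numbered from the start. In stretch 1 the mean was 0.967 RPKM in knockout and 0.652 RPKM in control, a ratio of 1.49 (1.31 to 1.69). Stretch 2 had 0.715 RPKM in knockout and 0.545 RPKM in control, a ratio of 1.31 (1.14 to 1.52). Stretch 3 had 0.659 RPKM in knockout and 0.499 RPKM in control, a ratio of 1.33 (1.14 to 1.54). In stretch 4, from 110500001 to 110521000, the knockout had 1.01 RPKM and the control 0.399 RPKM, and the ratio was 2.54 (2.19 to 2.95, widened 2.08 to 3.10). The intervals of stretches 1, 2 and 3 overlapped, and that of stretch 4 lay above them. The knockout signal thus declined over the first 3 stretches and was higher again in stretch 4, whereas the control signal declined from each stretch to the next. Relative to stretch 3, stretch 4 was 1.53 times as high in knockout and 0.800 times as high in control, comparisons inside each pool that scaling between pools does not touch. The ratio of stretch 4 was 1.91 times that of stretch 3 (widened interval 1.41 to 2.60), 1.93 times that of stretch 2 (1.41 to 2.64) and 1.71 times that of stretch 1 (1.28 to 2.27). These comparisons were not planned, and their intervals do not allow for stretch 4 being the one with the largest ratio. Of 52407 autosomal windows of 21 kb that reached the genome-wide mean, 5.07% had a higher log2 ratio than stretch 4, against 35.6% for stretch 3.

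**Figure D3:**
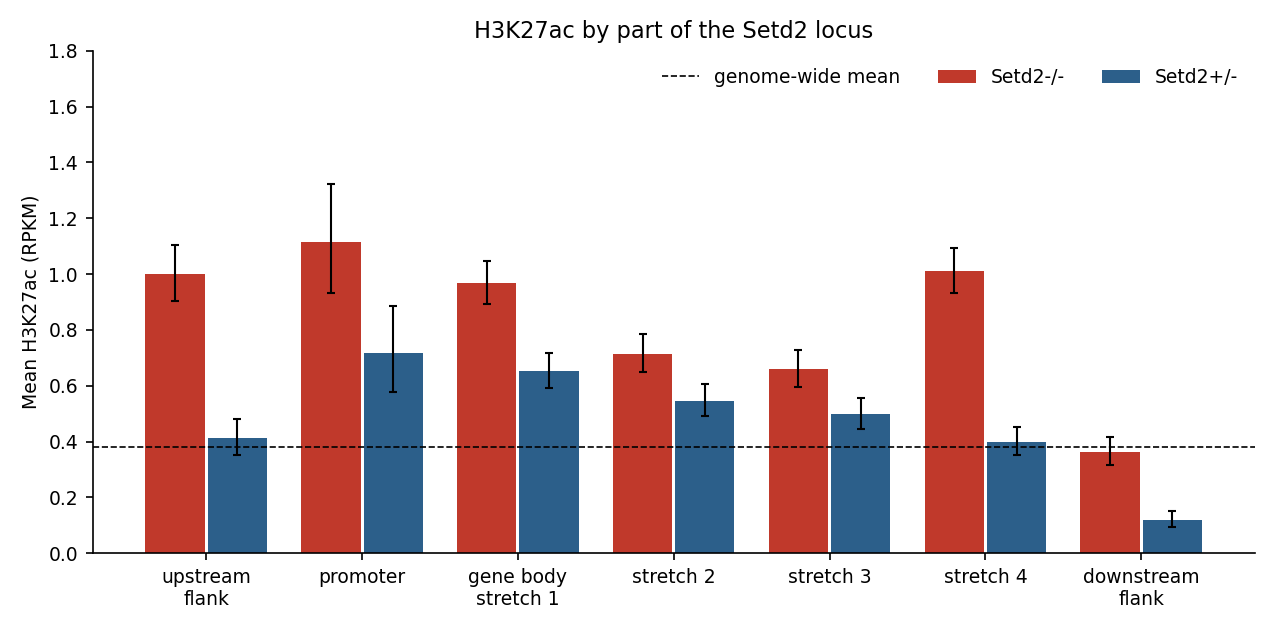
Mean H3K27ac in RPKM in the parts of the Setd2 locus, for the pooled Setd2-/- track (left bar of each pair) and the pooled Setd2+/- track (right bar), with exact Poisson 95% intervals that cover counting error only. The knockout bar is above the control bar in each part, and as a ratio the difference is smallest in stretches 2 and 3 of the gene body and largest in the downstream flank, stretch 4 and the upstream flank.

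Windows of 1 kb were called 2-fold different where both pools together averaged at least the genome-wide mean, on the scale of log2(RPKM + 0.1), which understates changes of low windows. Of 120 windows 94 could be called, and 35 of these were higher in knockout (37.2%, against 18.5% of 1048122 windows across the autosomes and X) and 2 were lower (2.13%, against 20.7%). The shares over all windows used the same filter. A window can reach the mean through 1 pool alone, as 110519001 to 110520000 did, with 1.23 RPKM in knockout and 0.066 RPKM in control. Most of the 35 higher windows passed only through their knockout value in this way, and the 2 lower ones only through their control value. Passing the filter and being called were thus not independent. The median log2 ratio of the 94 windows was 0.75, and 0.05 over all 1048122 windows. In the gene body 76 windows were at or above the mean, and counting called and uncalled ones together 54 had a log2 ratio above 0 and 22 below. Higher windows numbered 3 of 19 in stretch 1, 5 of 18 in stretch 2, 5 of 18 in stretch 3 and 12 of 21 in stretch 4. Neighbouring windows are not replicates, since they share libraries and fragments.

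The 3 highest log2 ratios lay at the 3′ end and past it. The window at 110519001 to 110520000 had 36 knockout reads and 2 control reads, a ratio of 18.8 (4.84 to 161) and a log2 ratio of 3.00. The window at 110536001 to 110537000, in the downstream flank, had 21 knockout reads and 3 control reads, with 52.4% of its knockout reads in 1 bin. The window at 110516001 to 110517000 had 24 knockout reads and 4 control reads. The 3 lowest lay inside the gene. At 110443001 to 110444000 the knockout had 7 reads and the control 27, a ratio of 0.271 (0.0996 to 0.638) and a log2 ratio of -1.54, and this window held the first of the 600 bp stretches without knockout reads. At 110478001 to 110479000 the knockout had 9 reads and the control 23, a log2 ratio of -1.07. At 110481001 to 110482000 the knockout had 8 reads and the control 19, and at -0.95 this window was not called. The 3 highest reached the genome-wide mean only through their knockout value, and the 3 lowest only through their control value. These windows were picked as extremes, which their intervals do not allow for.

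**Figure D4:**
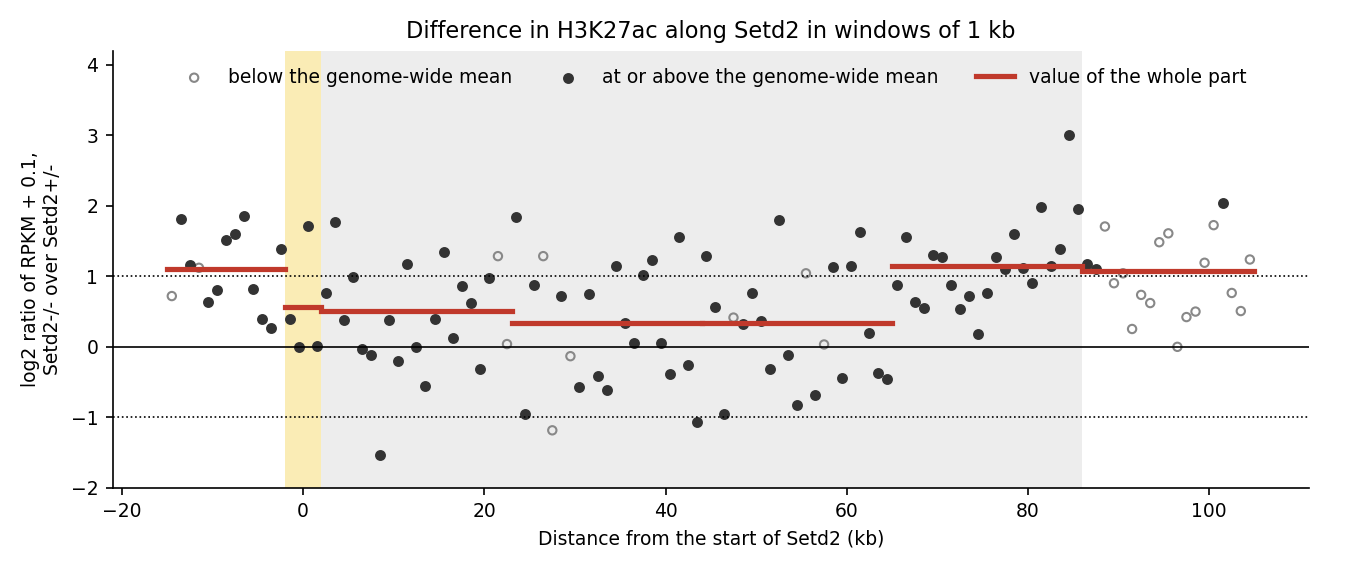
Log2 ratio of RPKM + 0.1, Setd2-/- over Setd2+/-, in windows of 1 kb against the distance in kb from the start of Setd2, with dotted lines at 2-fold, the promoter in yellow, the gene body in grey and red lines for the value of each part. Filled points are at or above the genome-wide mean, and 35 of these 94 lie above the upper limit and 2 below the lower one.

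Over the 84 windows of the gene body the shapes of both tracks had little in common, with Pearson's r of 0.13 for log2(RPKM + 0.1) and Spearman's rho of 0.05. Over the 120 windows of the region r was 0.54 and rho 0.35. The values for the region include the low downstream flank, and all the windows of a pool share its libraries and depth. With a median of 22.5 knockout reads and 16 control reads per window of the gene body, counting error lowers such values.

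The upstream flank, 13 kb from 110420001 to 110433000, had 1.00 RPKM in knockout (382 reads) and 0.412 RPKM in control (164 reads). Its ratio of 2.43 (2.02 to 2.94, widened 1.82 to 3.25) was past the 2-fold limit, as in 9.61% of 82013 autosomal windows of that length. On the scale of log2(RPKM + 0.1) it was 1.10, and it was under the limit at 0.96 with the means of chromosome 9 set equal and at 0.72 with a pseudocount of 0.5. Of its 11 windows at or above the mean all 11 had a log2 ratio above 0, and the median over all such windows of the autosomes and X was 0.05. Called higher were 6 of them, against 18.5% of windows across the autosomes and X, and most of these 6 reached the mean only through their knockout value. The knockout level here, 2.64 times the genome-wide mean of its pool, was close to that of stretch 4 of the gene body, at 2.67 times.

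At the other end of the gene the signal fell in both pools, at about the same place. In the last 10 kb of the gene the mean was 1.16 RPKM in knockout and 0.356 RPKM in control, and the first 2 kb past it still had 1.12 RPKM in knockout and 0.457 RPKM in control. The remaining 17 kb had 0.274 RPKM in knockout (137 reads) and 0.0791 RPKM in control (41 reads). The fall was 4.25-fold in knockout and 4.49-fold in control, again inside each pool. It fell between the window at 110522001, with 30 knockout reads and 13 control reads, and that at 110523001, with 13 knockout reads and 2 control reads. The downstream flank as a whole, 19 kb from 110521001, had a ratio of 3.08 (2.33 to 4.10, widened 2.07 to 4.56). Its level, 0.363 RPKM in knockout and 0.119 RPKM in control, was below the genome-wide mean, so the flank as a whole was not called. Of its 19 windows 3 were at or above that mean, and all 3 were called higher, against 18.5% of windows across the autosomes and X. The first ones past the gene were 2 of them. The other, at 110536001, reached the mean only through its knockout value, 0.715 RPKM against 0.098 RPKM in control.

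The higher knockout signal was not limited to Setd2. In the 250 kb to the left of the region the mean was 0.787 RPKM in knockout and 0.393 RPKM in control, a ratio of 2.00, and in the 250 kb to the right it was 0.497 RPKM in knockout and 0.303 RPKM in control, a ratio of 1.64. In windows of 10 kb, all 12 of the region were higher in knockout, as were 47 of 50 in the 500 kb to the left and 30 of 50 in the 500 kb to the right. The median ratio of these windows was 1.75 in the region, 1.85 to the left and 1.14 to the right. The ratio of the gene body, 1.60, was below that of the left 250 kb, while its widened interval of 1.44 to 1.79 held the 1.64 of the right 250 kb and lay above the median of 1.14 in the right 500 kb. The middle of the gene was lower still, at 1.31 in stretch 2 (widened 1.03 to 1.67) and 1.33 in stretch 3 (widened 1.05 to 1.67), intervals that held both values of the right side but not the 2.00 of the left one. The right side was itself uneven. Windows of 10 kb centred 110 to 190 kb from the start had ratios of 1.83 to 3.00, above that of the gene body. On this side ratios below 1 were found only farther out, from 240 kb on.

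**Figure D5:**
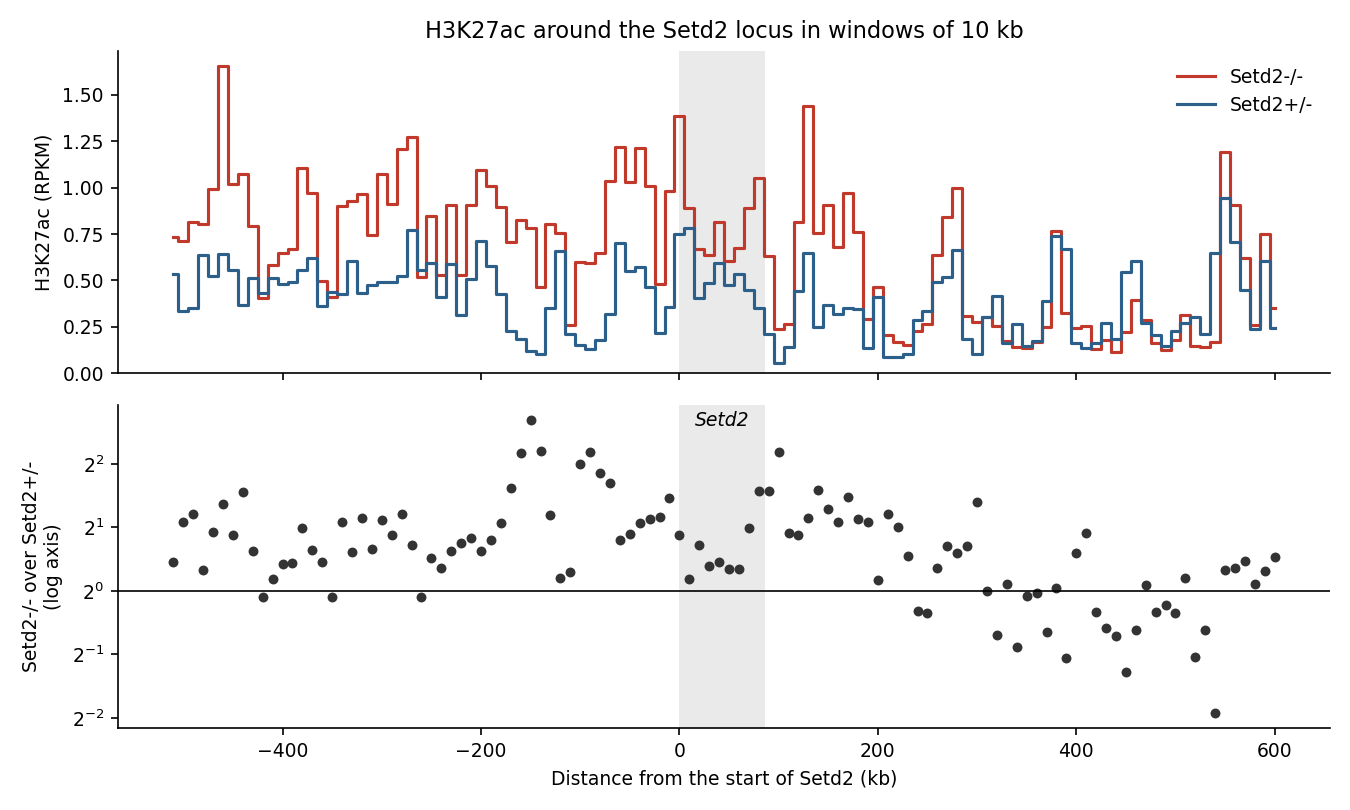
H3K27ac in RPKM (upper panel) and the ratio of Setd2-/- over Setd2+/- on a log axis (lower panel) in windows of 10 kb against the distance in kb from the start of Setd2, with the gene in grey. All 12 windows of the region and 47 of the 50 to its left lie above a ratio of 1, against 30 of the 50 to its right. The share across the autosomes was not computed.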

How the data were processed

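The H3K27ac STAR ChIP-seq data comprise 2 replicates per genotype, which share 1 deposited file. The deposited values are RPKM per 100 bp bin, as the authors computed them, and bins without a line were read as 0 here. Bowtie2 2.2.2 and mm9 are named in the submitters' processing notes. The sources used here do not give read extension, duplicate removal or input. That the unit is RPKM rests on the sum of the values. In both pools 100% of bins were whole multiples of the value of 1 read within 0.005 RPKM, and the reads came from this step.

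Regions were cut at the approximate gene ends of the selection rule, and means, ratios and calls were computed over all windows of the genome. The named windows are the 3 highest and 3 lowest log2 ratios at or above the mean and the 3 highest windows of each pool. Members, lists and tests were chosen with earlier results of these data known. The stretches of 250 and 500 kb, the start, the gene end and the widened intervals were added later. Recovery of reads and calls was tested on simulated data whose reads varied as independent counts. Reads of the region were more uneven than that, so the simulation does not give the rate of false calls here. Pathway and marker genes were planned but not analysed here, for lack of an mm9 annotation. The other 54 samples were not used here. The tools were matplotlib 3.10.9, SciPy 1.17.1, pandas 2.3.3, NumPy 2.4.6 and Python 3.11.15.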

Additional observations from a re-analysis of the deposited data

How the results depend on the processing

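No paired analysis was possible because the replicates of a genotype share 1 track, and no replicate could be left out. The log2 ratios, 0.68 for the whole region, 1.10 upstream, 0.57 at the promoter, 0.59 in the gene body and 1.08 downstream, stayed above 0 in each setting run. A pseudocount cannot change this sign, and no scaling shifted the knockout values by more than -0.16. For these settings the sign was thus fixed in advance. With a pseudocount of 0.01 they were 0.78 for the whole region and 1.54 downstream, and with 0.5 they were 0.43, 0.72 upstream, 0.39 in the gene body and 0.48 downstream, as a larger pseudocount shrinks low values by construction. Setting the means of chromosome 9 equal shifted every knockout value by -0.16 and gave 0.54 for the whole region and 0.45 in the gene body. Under this scaling the upstream flank was at 0.96, no longer 2-fold. The promoter was 0.99 with 1 kb on either side, and the gene body 0.48 as a median over 1 kb windows; the cause was not tested. In the 4 stretches of the gene body all 24 values from alternative settings, chosen after seeing the data, were above 0, from 0.20 to 1.32. Most of these settings could not change the sign either. Windows called higher and lower, 35 and 2 of 94, were 72 and 16 of 179 with windows of 500 bp, 16 and 0 of 50 with 2 kb and 5 and 0 of 21 with 5 kb. They were 16 and 0 of 34 with a filter at 2 times the mean and 53 and 7 of 94 at 1.5-fold. With a pseudocount of 0.5 they were 16 and 0 of 94, and with one of 0.01 they were 38 and 4 of 94. The cause of these moves was not tested. Shares over all windows were computed for the main setting alone, so these counts cannot be set against the genome. Rich windows, 23 in knockout and 1 in control, numbered 56 in knockout and 14 in control at 2 times the mean, and 2 in knockout and 0 in control at 5 times. These limits were chosen after seeing the data, and shares across the genome were not computed for them. Depth limits single windows, with a median of 21 knockout reads and 13 control reads per 1 kb.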
